A study of Homo sapiens with 13 samples.

Results

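IL6, LIF, IL11 and CLCF1, cytokines of the interleukin-6 (IL6) family, were measured together with the receptors IL6ST, IL6R, OSMR and LIFR and the signal genes SOCS3 and STAT3 in hFOB osteoblasts by mRNA sequencing. Members were the rows of the count table whose Ensembl identifier maps to 1 of these 10 symbols, all 10 of which were found among 43836 genes. The rule uses their names and no measured value, although they were proposed with earlier results of these data known. All 10 passed the filter on low counts that left 17092 genes for testing. The hFOB line is 1 immortalized human fetal osteoblast line grown as a single cell type, so every library shares its genotype and no bone tissue, donor or other cell type was compared. Positive controls (PC, n = 2) were grown with 10% fetal bovine serum (FBS), and negative controls (NC, n = 2) were starved of serum. The other groups were starved in the same way and given 1 µg/mL of a compound: resveratrol (RES, n = 3), a plant stilbene, peonidin-3-O-glucoside (POG, n = 3), an anthocyanin glucoside, or DEG (n = 2). The labels do not spell out DEG. Their treatment text names delphinidin-3-glucoside beside the other compounds without tying it to the abbreviation. Per the study's methods, cells stood in their medium with or without FBS for a day before a compound was added, and both controls received the solvent dimethyl sulfoxide.

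Cytokines of this family act through the shared signal receptor gp130, encoded by IL6ST. IL6 and IL11 first bind their own receptor chains (IL6R, IL11RA), whereas LIF brings LIFR to gp130 and oncostatin M brings OSMR or LIFR. The receptors activate JAK kinases, which phosphorylate STAT3, and STAT3 induces SOCS3, a feedback inhibitor of the same receptors. In bone, IL6, IL11 and LIF from osteoblast-lineage cells are known to stimulate osteoclast formation through RANKL, and gp130 signals also act on osteoblast differentiation.

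IL6, IL11, IL6ST and OSMR were the members called lower with both POG and DEG as compared with NC, so their promoters are shown. Each sequence covers 250 bases before to 50 bases after the transcription start in the direction of the gene, from RefSeq on GRCh38.p14: IL6 at chr7:22726950-22727249 (plus strand), IL11 at chr19:55370414-55370713 (minus), IL6ST at chr5:55994914-55995213 (minus) and OSMR at chr5:38845762-38846061 (plus). Capitals mark matches to 5 motifs that were searched on both strands.
IL6: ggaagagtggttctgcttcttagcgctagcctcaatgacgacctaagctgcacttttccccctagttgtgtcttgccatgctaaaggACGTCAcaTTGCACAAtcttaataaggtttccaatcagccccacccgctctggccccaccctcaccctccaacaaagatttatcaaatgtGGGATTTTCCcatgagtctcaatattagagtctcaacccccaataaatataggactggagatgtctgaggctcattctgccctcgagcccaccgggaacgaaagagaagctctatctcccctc
IL11: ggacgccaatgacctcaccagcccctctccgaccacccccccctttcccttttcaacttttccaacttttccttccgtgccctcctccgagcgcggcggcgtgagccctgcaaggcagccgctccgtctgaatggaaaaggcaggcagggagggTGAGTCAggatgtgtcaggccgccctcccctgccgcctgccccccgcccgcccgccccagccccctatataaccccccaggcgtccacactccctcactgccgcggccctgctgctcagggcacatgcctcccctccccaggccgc
IL6ST: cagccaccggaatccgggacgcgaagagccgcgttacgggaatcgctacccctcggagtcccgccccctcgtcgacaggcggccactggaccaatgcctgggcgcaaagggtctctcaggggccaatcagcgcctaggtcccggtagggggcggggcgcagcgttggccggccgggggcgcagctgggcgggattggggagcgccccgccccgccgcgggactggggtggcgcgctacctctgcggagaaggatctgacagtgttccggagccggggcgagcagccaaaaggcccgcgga
OSMR: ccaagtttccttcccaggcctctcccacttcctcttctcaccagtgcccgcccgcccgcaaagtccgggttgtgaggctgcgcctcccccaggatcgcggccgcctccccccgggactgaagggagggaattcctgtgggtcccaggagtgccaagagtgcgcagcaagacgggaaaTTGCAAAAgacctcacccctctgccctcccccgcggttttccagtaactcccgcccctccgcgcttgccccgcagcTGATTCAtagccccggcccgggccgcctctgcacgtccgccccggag

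The IL6 promoter held an NF-kB motif (GGGANNTTCC) at -73 to -64 from the start, a C/EBP motif (TTGCNNAA) at -155 to -148 and a cyclic AMP response element (TGACGT, matched on the opposite strand as ACGTCA) at -163 to -158. These motifs were found in 1.61%, 10.5% and 7.98% of 35116 RefSeq promoters of the same length. IL11 carried an AP-1 motif (TGANTCA, found in 7.71% of promoters) at -96 to -90. OSMR matched the AP-1 letters at 4 to 10 and the C/EBP motif at -73 to -66. The N in the AP-1 letters admits any base, also in the share of promoters. The match read TGATTCA in OSMR and TGAGTCA in IL11. Outside the printed windows, the AP-1 motif also matched in IL6R at 38 to 44 and the C/EBP motif in a LIFR window at -31 to -24. None of the 5 motifs matched in the IL6ST window. The STAT motif (TTCNNNGAA), in 7.66% of promoters, matched none of the printed windows and only LIFR among the 8 members with an entry. None of these 5 motifs was thus common to the 4 printed windows, and other motifs were not searched. A match describes letters, not binding.

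Libraries held 38464619 to 51416358 counted reads, and mitochondrial genes took 3.03% to 3.91% of them. Levels are given as CPM, a gene's reads as a proportion of the library's reads, scaled between libraries by TMM. Genes with a false discovery rate (FDR) under 0.05 in edgeR's exact test were called. Of 9 osteoblast markers, 7 passed the filter. COL1A1, the main collagen of bone, was at 2463 to 2869 CPM, COL1A2 at 1112 to 1420, SPARC at 1019 to 1177 and RUNX2 at 44.3 to 51.6. ALPL was at 3.22 to 6.66 CPM, SPP1 at 0.955 to 2.34 and BGLAP at 0.425 to 2.00, whereas SP7 and IBSP were below the filter. The sum of these markers thus reflects mostly COL1A1, COL1A2 and SPARC. The summed osteoblast markers were at 5263 to 5321 CPM in NC, 5461 to 5524 in PC, 4907 to 5035 in RES, 4751 to 4786 in POG and 4763 to 4769 in DEG. Their part in the member results was not tested. Markers of other cell types were close to 0. Immune markers (2 of 4 tested) summed to 2.14 to 4.45 CPM with the T-cell gene CD3E at 0 reads in every library, endothelial markers (2 of 3) to 1.33 to 3.16, adipocyte markers (1 of 2) to 0.465 to 1.17 and epithelial markers (1 of 2) to 0.172 to 0.545. RNA was pooled from all cells of a culture, so fewer cells making a transcript cannot be told apart from less transcript per cell.

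When levels were divided by exon length, the cytokines stood at the top of the set. In NC, IL6 had a level of 228 ± 3.87 CPM per kb (SD, n = 2), which ranked 77 of 16961 tested genes with a length. IL11 followed at 196 CPM per kb (rank 99) and LIF at 98.7 (rank 258). CLCF1, a ligand of the ciliary neurotrophic factor receptor, was far lower at 8.31 CPM per kb. Among receptors, OSMR was at 43.9 CPM per kb, IL6ST at 23.4, LIFR at 4.58 and IL6R at 1.61. Between them lay the signal genes, SOCS3 at 20.9 CPM per kb and STAT3 at 18.2. The receptor chain that gives cells direct sensitivity to IL6 was thus the lowest of the 10 genes, and IL6ST exceeded it per kb by 14.6 ± 0.680 times (SD, n = 2) in NC. This ratio was 15.4 ± 1.15 in RES (n = 3), 13.5 ± 1.04 in PC (n = 2), 11.5 ± 0.204 in POG (n = 3) and 11.3 ± 0.450 in DEG (n = 2).

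**Figure D1:**
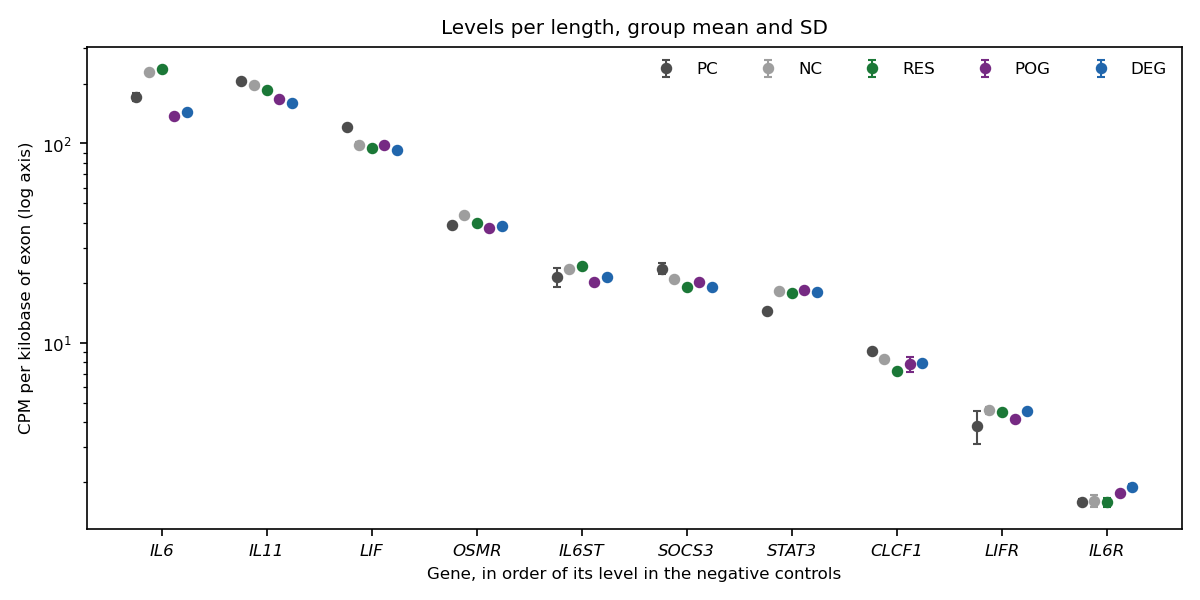
Level per exon length (CPM per kb, log axis) of the 10 genes in the 5 groups; points are group means and bars are SD. IL6, IL11 and LIF lay above the receptors and IL6R was lowest. Over the whole set the groups shifted less than the genes differed. Between groups, IL6 and IL11 changed order, as did IL6ST and SOCS3.

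Per kb, the order of IL6 and IL11 depended on the group. In NC the IL6:IL11 ratio of levels per kb was 1.16 ± 0.0180 (SD, n = 2), and in RES it was 1.28 ± 0.0163 (n = 3). The ratio was 0.832 ± 0.0214 in PC (n = 2), 0.822 ± 0.0221 in POG (n = 3) and 0.907 ± 0.0225 in DEG (n = 2). Per kb, IL6 was therefore the highest member in every NC and RES library, and IL11 in every PC, POG and DEG library. This order rests on the merged exon lengths of 4.321 kb for IL6 and 2.678 kb for IL11, and in CPM, without division by length, IL6 was above IL11 in all 12 libraries. IL6 made up 42.9% of the summed ligand level per kb in NC, 45.1% in RES, 33.7% in PC, 33.5% in POG and 35.7% in DEG. The PC and POG shares were thus close, although LIF was higher in PC and IL11 lower in POG as compared with NC.

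IL6 (ENSG00000136244, chromosome 7, 22725884 to 22732002, plus strand, hg38) varied most between groups, with a ratio of 1.71 between the highest and lowest group means. Its level was 973 and 996 CPM in NC, 1023, 1012 and 1019 in RES, 765 and 715 in PC, 597, 583 and 605 in POG and 621 and 628 in DEG. The groups formed an order of RES, NC, PC, DEG and POG in which no neighbours overlapped. IL6 fell by 39.6% with POG as compared with NC (log2 fold change -0.73 ± 0.0275 SE, FDR = 7.96e-101). With DEG it fell by 36.6% (log2 fold change -0.66 ± 0.0302 SE, FDR = 1.73e-65), and in PC by 24.8% (-0.41 ± 0.0300 SE, FDR = 3.52e-27). With RES the difference was 0.05 on the log2 scale, with a 95% interval of -0.0077 to 0.104 (FDR = 0.422). Ranked by p among 17092 genes, IL6 was number 1 in DEG against NC, number 2 in POG against NC and number 397 in PC against NC. By size of the change it was less extreme, exceeding 94.9% of genes in POG and 92.9% in DEG. These comparisons share the NC libraries, so their directions are not independent. IL6 shares 46 exon bases with STEAP1B on the opposite strand, a gene with 191 to 430 reads per library against 24030 to 45584 for IL6. It also shares 428 exon bases on the opposite strand with IL6-AS1, whose level was not analysed here.

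**Figure D2:**
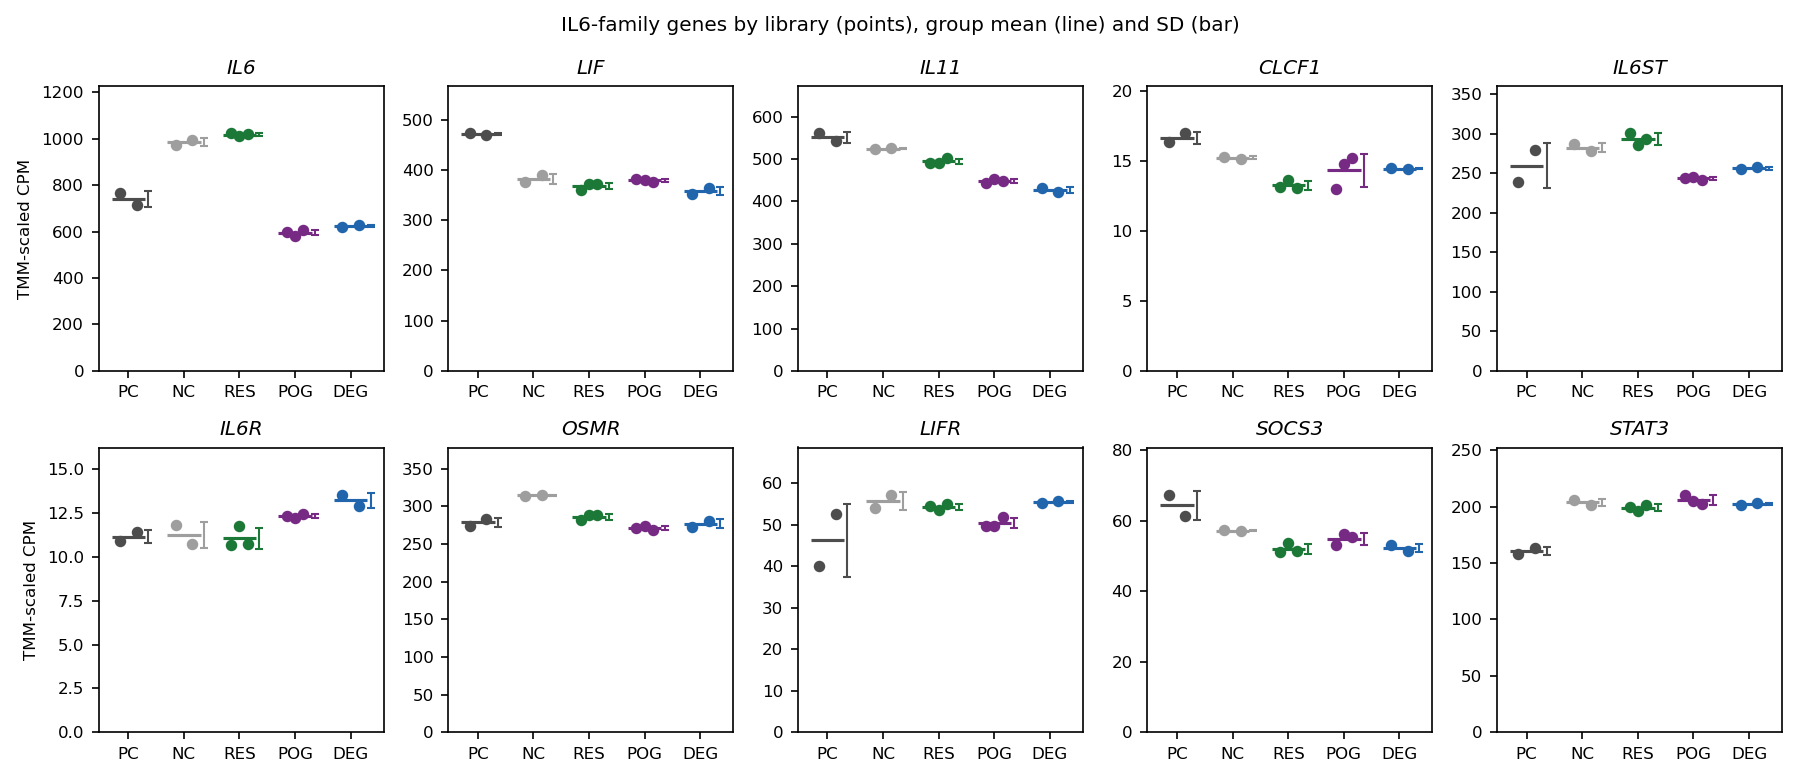
Level of each of the 10 genes (CPM, linear axes from 0 that differ between panels) by group; points are libraries, horizontal lines group means and bars beside them SD. IL6 shows POG and DEG lowest and RES and NC highest, LIF and SOCS3 show PC highest, and STAT3 shows PC lowest.

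IL11, a cytokine that stimulates osteoclast formation and bone remodelling, was lower with both POG and DEG. It was measured at 524 and 525 CPM in NC, 560 and 542 in PC, 491, 490 and 502 in RES, 444, 454 and 449 in POG and 432 and 422 in DEG. Group ranges fell in the order PC, NC, RES, POG and DEG without overlap between neighbours. IL11 fell by 14.4% with POG (log2 fold change -0.22 ± 0.0266 SE, FDR = 1.36e-10) and by 18.7% with DEG (-0.30 ± 0.0293 SE, FDR = 5.28e-15). In RES its log2 fold change was -0.09 (95% interval -0.140 to -0.0316, FDR = 0.0587), a value that passed the threshold in the quasi-likelihood test (FDR = 0.0358) and in DESeq2 (FDR = 0.0157), with a range of 0.00428 to 0.311 over 12 alternatives. In PC it was 0.07 (FDR = 0.0863, range 8.88e-04 to 0.546 over 11 alternatives), which passed in the same tools.

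LIF, which acts through LIFR and gp130, was called by the exact test only in PC against NC among the 7 comparisons. Its levels were 375 and 389 CPM in NC, 472 and 469 in PC, 361, 372 and 371 in RES, 381, 379 and 376 in POG and 353 and 364 in DEG. Both PC libraries lay above all others, and LIF was 23.3% higher in PC than in NC (log2 fold change 0.30 ± 0.0305 SE, FDR = 7.14e-16). Thus IL6 was lower and LIF higher with serum. With POG the LIF difference from NC was -0.01 on the log2 scale (95% interval -0.0693 to 0.0451, FDR = 0.893), so that a change of the size of that of IL6 lay outside its interval. With DEG it was -0.09 (95% interval -0.156 to -0.0299, FDR = 0.0879), which passed the threshold in DESeq2 (FDR = 0.0415), with a range of 0.00725 to 0.541 over 11 alternatives. CLCF1 had 561 to 809 reads per library and group means from 13.3 CPM in RES to 16.7 in PC. It was not called in any of the 7 comparisons, and its intervals were wide, for example -0.352 to -0.0457 on the log2 scale in RES against NC (FDR = 0.0707).

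Among receptors, IL6ST and OSMR fell with both POG and DEG. IL6ST, the gp130 subunit common to the family, was at 286 and 278 CPM in NC, 239 and 279 in PC, 300, 286 and 294 in RES, 244, 245 and 241 in POG and 255 and 258 in DEG. The POG and DEG libraries lay below both NC libraries, whereas RES overlapped NC and the PC libraries differed from each other by more than those of any other group. IL6ST fell by 13.8% with POG (log2 fold change -0.21 ± 0.0399 SE, FDR = 3.09e-05) and by 9.19% with DEG (-0.14 ± 0.0438 SE, FDR = 0.0436). The DEG call was lost in 6 of 11 alternatives, DESeq2 included (FDR = 0.0552, range 7.57e-06 to 0.333). In PC the log2 fold change was -0.12 (FDR = 0.0275), and without PC replicate 1 it was -0.0094 (FDR = 0.890, range 6.57e-12 to 0.890 over 11 alternatives), so the PC value rested on that library.

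OSMR, the oncostatin M receptor chain, was at 314 and 315 CPM in NC, 274 and 283 in PC, 282, 289 and 288 in RES, 271, 274 and 268 in POG and 273 and 281 in DEG. NC stood above every other library, and RES, PC, DEG and POG overlapped along that order. OSMR was the member called lower than NC in all 4 comparisons. It fell by 11.5% in PC (FDR = 8.33e-06), fell by 9.02% with RES (FDR = 0.00102), fell by 13.8% with POG (FDR = 5.62e-09) and fell by 12.0% with DEG (FDR = 2.12e-05). All 4 values share the 2 NC libraries, and without NC replicate 2 the RES value had an FDR of 0.0504 (range 3.64e-06 to 0.0504 over 12 alternatives). OSMR shares 229 exon bases with RICTOR on the opposite strand, a gene with 3620 to 4760 reads per library against 10552 to 13553 for OSMR. The kit selects a strand, but the strand setting of the counting was not stated, so reads in that stretch cannot be assigned.

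LIFR lies near OSMR on chromosome 5 (gap of 237.5 kb, with 4 genes between), and its levels were 54.2 and 57.2 CPM in NC, 40.1 and 52.5 in PC, 54.5, 53.5 and 55.0 in RES, 49.6, 49.7 and 51.9 in POG and 55.3 and 55.7 in DEG. The called difference was a fall of 17.0% in PC (log2 fold change -0.27 ± 0.0692 SE, FDR = 6.41e-04), where the libraries had a CV of 18.9%. Without PC replicate 1 the LIFR value was -0.08 (FDR = 0.292, range 8.19e-16 to 0.292 over 11 alternatives). With POG it was -0.14 (95% interval -0.272 to -0.0155, FDR = 0.122), which passed the threshold with dispersions from the compared groups alone (FDR = 0.00373, range 0.00373 to 0.565 over 12 alternatives). IL6R, the ligand-binding chain for IL6, had 426 to 577 reads per library. It was at 11.8 and 10.7 CPM in NC, 10.9 and 11.4 in PC, 10.7, 11.7 and 10.7 in RES, 12.3, 12.2 and 12.4 in POG and 13.5 and 12.9 in DEG. The DEG and POG libraries lay above those of NC, with log2 fold changes of 0.23 (95% interval 0.054 to 0.411, FDR = 0.0804) and 0.13 (-0.0299 to 0.295, FDR = 0.309) that did not pass the threshold. The DEG value passed it with library totals (FDR = 0.0463, range 0.0463 to 0.494 over 11 alternatives).

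The signal genes were called mainly with serum. STAT3, the transcription factor activated by gp130, was at 206 and 202 CPM in NC and 158 and 163 in PC. In the compound groups it was at 196 to 210 CPM, around the NC values. It fell by 21.1% in PC (log2 fold change -0.34 ± 0.0343 SE, FDR = 1.23e-17). As compared with NC its intervals were -0.0987 to 0.0286 in RES, -0.0506 to 0.0766 in POG and -0.0819 to 0.0580 in DEG, on the log2 scale. SOCS3 was at 57.4 and 57.1 CPM in NC, 67.3 and 61.4 in PC, 51.1, 53.7 and 51.3 in RES, 53.0, 56.1 and 55.3 in POG and 53.0 and 51.5 in DEG. PC lay above NC and the compound groups below it. SOCS3 was 12.6% higher in PC (log2 fold change 0.17 ± 0.0493 SE, FDR = 0.00329), and without PC replicate 1 it was 0.11 (FDR = 0.111, range 1.27e-05 to 0.111 over 11 alternatives). With RES it fell by 9.06% (FDR = 0.0412), a call that was lost in 8 of 12 alternatives, the quasi-likelihood test (FDR = 0.0543) and DESeq2 (FDR = 0.0572) among them (range 0.0115 to 0.247). SOCS3, a STAT3 target gene, and STAT3 thus differed from NC in opposite directions in PC.

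Counted over the members, 7 of 10 were called in PC against NC (LIF and SOCS3 higher, IL6, IL6ST, OSMR, LIFR and STAT3 lower), where 42.4% of all tested genes were called (21.4% higher, 20.9% lower). Without PC replicate 1 fewer members and fewer of all genes were called, and without PC replicate 2 more of both were called. Each of these fits left 1 PC library. Without PC replicate 1 the log2 fold changes were -0.0094 for IL6ST, -0.08 for LIFR and 0.11 for SOCS3. Without PC replicate 2 they were -0.23, -0.46 and 0.24. In RES against NC 2 members (OSMR and SOCS3) were called, both lower, where 11.2% of all genes were called and 6.21% were lower. Without NC replicate 2, which left 1 NC library, both calls were lost and fewer of all genes were called. The log2 fold changes of OSMR and SOCS3 were then -0.13 and -0.14. With all libraries 4 members had an unadjusted p under 0.05 in the exact test. The quasi-likelihood test and DESeq2 each called 2 members, OSMR and IL11, and neither called SOCS3 (FDR = 0.0543 and 0.0572). In POG against NC 4 members were called, all lower, as compared with 14.5% of all genes in either direction and 8.57% lower. In DEG against NC 4 members were called, the same 4 genes and all lower, where 9.63% of all genes were called and 6.11% were lower. The median log2 fold change of the 10 members was -0.07 in PC, -0.04 in RES, -0.12 in POG and -0.11 in DEG, whereas that of all tested genes was between -0.0059 and 0.0023 in these comparisons. With 10 members a share is coarse, and the members share receptors and signal steps. The shares of all genes include genes of low level. With a filter at a mean of 1 CPM, 13406 genes were tested against NC. Of these 7018 were called in PC, 1962 in RES, 2536 in POG and 1720 in DEG.

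**Figure D3:**
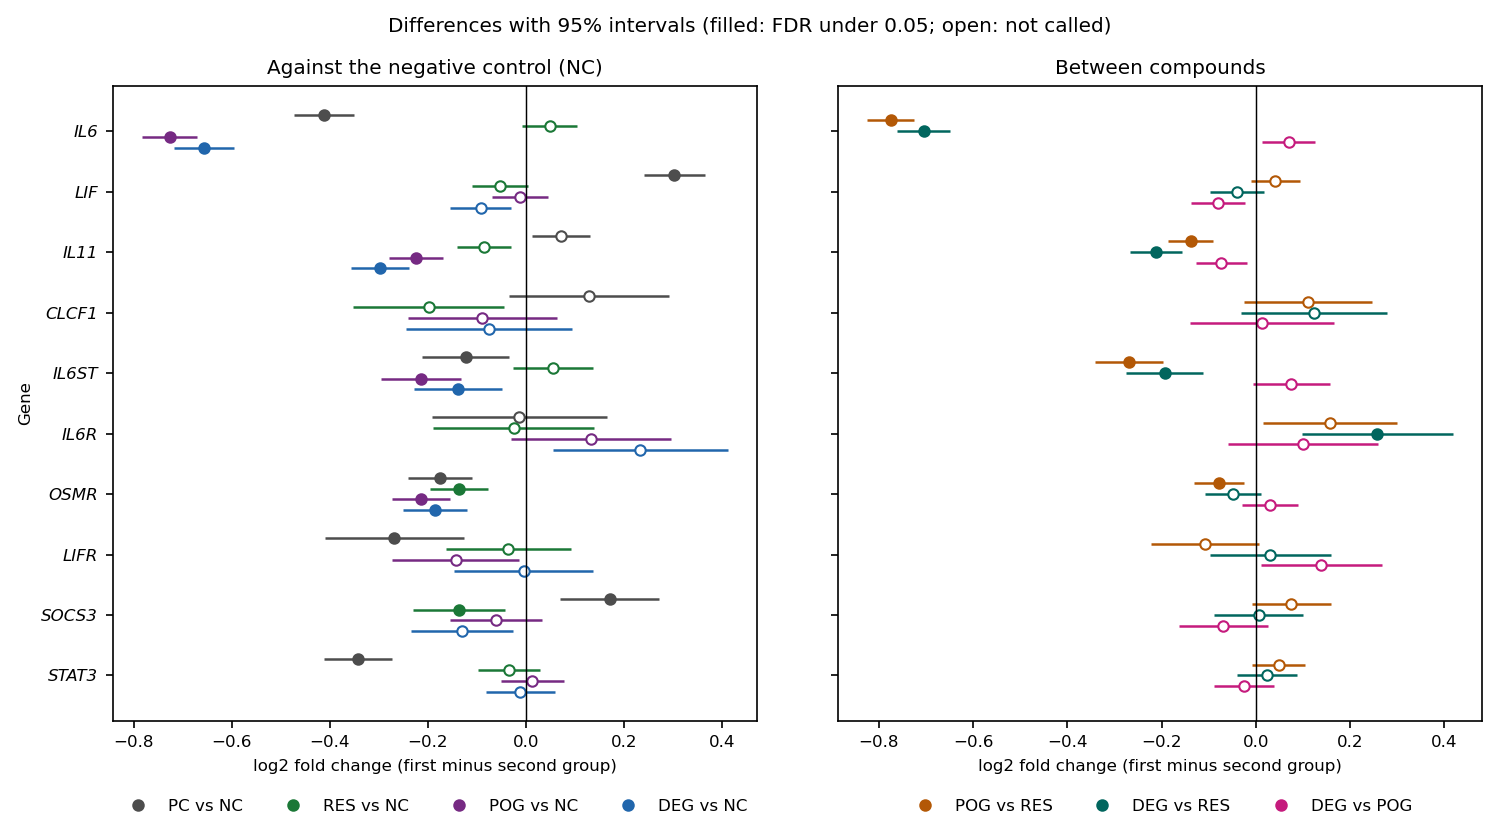
Log2 fold change (first group minus second) of the 10 genes with 95% intervals, against NC on the left and between compounds on the right; filled points had an FDR under 0.05. IL6 lay far to the left for POG and DEG against both NC and RES, while the other genes lay much closer to 0.

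The compounds were then compared with each other at their common dose of 1 µg/mL in 3 pairs, with FDR taken over all tested genes in each pair. POG and RES, an anthocyanin glucoside and a stilbene without a sugar, differed in IL6 by -0.77 on the log2 scale (± 0.0246 SE, FDR = 3.00e-140), which was 41.6% lower in POG. IL6ST was also lower in POG than in RES (-0.27 ± 0.0355 SE, FDR = 2.37e-10), as was IL11 (-0.14 ± 0.0238 SE, FDR = 1.45e-05). OSMR differed by -0.08 (FDR = 0.0324), a call that was lost in 6 of 13 alternatives (range 6.48e-04 to 0.141). These 4 calls stood beside 27.9% of all genes called in this pair, 14.1% of all genes being lower in POG. DEG and RES differed in IL6 by -0.71 (± 0.0275 SE, FDR = 3.88e-89), in IL11 by -0.21 (FDR = 2.24e-09) and in IL6ST by -0.19 (FDR = 1.69e-04). IL6R was 19.5% higher in DEG than in RES (0.26 ± 0.0784 SE, FDR = 0.00886), and without DEG replicate 1 it was 0.22 (FDR = 0.155, range 0.00513 to 0.155 over 12 alternatives). In this pair 4 members and 21.2% of all genes were called (10.8% lower and 10.3% higher in DEG).

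Between DEG and POG, 0 of 10 members were called by the exact test, the quasi-likelihood test or DESeq2, and 1.05% of all genes were called by the exact test. Unadjusted p was under 0.05 for 4 members. These were IL6 (log2 difference 0.07, 95% interval 0.0132 to 0.126, p = 0.0399), LIF (-0.08, -0.138 to -0.0234, p = 0.0145), IL11 (-0.07, -0.128 to -0.0188, p = 0.0225) and LIFR (0.14, 0.0103 to 0.267, p = 0.0305), each from the edgeR exact test. The intervals limit the difference in IL6 between DEG and POG to well under the one each had from RES. They do not show that DEG and POG act alike, since with dispersions estimated from these 2 groups alone 5 members were called. That setting called 829 of all 17092 genes, as compared with 179 in the main test.

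Genes around the members were described from 7 lists with 47 genes, of which 43 were tested. OSM, the ligand of OSMR, had 41 reads over all libraries, and IL27, IL31 and SERPINA3 had 0, and these 4 were left out by the filter. In PC against NC 25 of 43 genes, or 58.1%, were called (11 higher, 14 lower), with a median log2 fold change of -0.05. Of all tested genes 42.4% were called, 21.4% higher and 20.9% lower. These include genes of low level, and with a filter at a mean of 1 CPM 7018 of 13406 genes were called. MYC, a growth-promoting transcription factor, rose from 46.6 to 94.0 CPM (log2 fold change 1.01 ± 0.0497 SE, FDR = 2.59e-85). SOCS1, a feedback inhibitor of JAK kinases, rose as well (0.70, FDR = 2.14e-07). BCL6, a transcriptional repressor (-0.71, FDR = 3.46e-44), FOS, an AP-1 subunit (-0.71, FDR = 4.68e-10), and IL11RA, the receptor chain of IL11 (-0.59, FDR = 7.22e-14), were lower in PC. Among JAK and STAT genes, JAK2, STAT5A and STAT5B were lower in PC, as was STAT3 among the members. Of 9 tested STAT3 target genes, 5 were higher and 1 was lower in PC.

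In POG against NC 15 of 43 genes, or 34.9%, were called, 1 higher and 14 lower, with a median log2 fold change of -0.04, beside 14.5% of all genes. Of the 11 tested IL6 mRNA regulators, 6 were among the called genes. This list holds transcription factors that act on the IL6 gene and RNA-binding proteins that act on its transcript. JUN, an AP-1 subunit, fell from 165 to 132 CPM (log2 fold change -0.32 ± 0.0326 SE, FDR = 7.66e-17), and ZFP36L2, a protein that promotes decay of AU-rich transcripts, from 131 to 106 CPM (-0.30 ± 0.0364 SE, FDR = 1.04e-12). ZC3H12A, the ribonuclease Regnase-1, which degrades IL6 mRNA, was at 151 CPM in NC and 128 in POG (-0.24, FDR = 7.51e-08). The members of this list that fell act in both directions. JUN and NFKBIZ promote transcription, while ZC3H12A, RC3H1, ZFP36L1 and ZFP36L2 promote decay. The part of these genes in the IL6 level was not tested. IL31RA, a receptor chain that pairs with OSMR (-0.41, FDR = 0.0374), and SOCS2 (-0.39, FDR = 3.32e-05) also fell, and IL27RA, which pairs with gp130, was higher (0.25, FDR = 1.85e-06). The IL31RA call was lost in the quasi-likelihood test (FDR = 0.0589) and in DESeq2 (FDR = 0.0758). Both receptor sheddases, ADAM10 (-0.10, FDR = 0.0450) and ADAM17 (-0.19, FDR = 2.91e-04), were lower with POG.

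**Figure D4:**
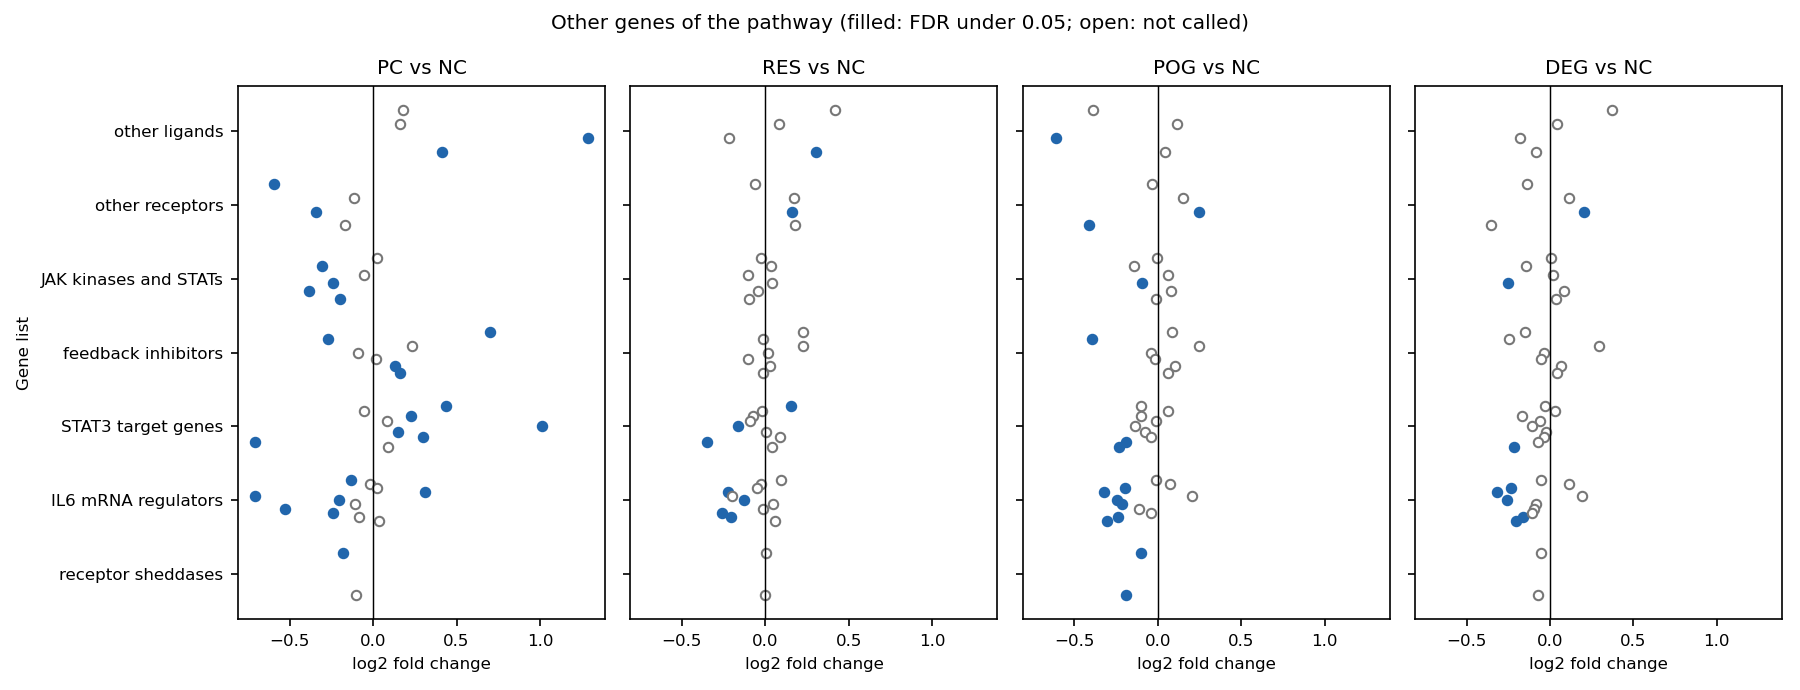
Log2 fold change against NC of the tested pathway genes, by list, in the 4 groups; each point is a gene and filled points had an FDR under 0.05. PC shows the widest spread, and the filled points of POG and DEG lie mostly below 0.

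In DEG against NC 8 of 43 genes, or 18.6%, were called, 1 higher and 7 lower, with a median log2 fold change of -0.06, beside 9.63% of all genes. JUN fell from 165 to 132 CPM (log2 fold change -0.32 ± 0.0360 SE, FDR = 2.43e-13), ZC3H12A to 127 CPM (-0.26 ± 0.0411 SE, FDR = 6.47e-07) and NFKBIZ, a nuclear cofactor of NF-kB on the IL6 gene, from 152 to 129 CPM (-0.23 ± 0.0364 SE, FDR = 6.47e-07). FOSL2, an AP-1 subunit of osteoblasts, fell by 0.21 on the log2 scale (FDR = 8.23e-06). IL27RA was higher in DEG (0.20, FDR = 0.0013) and also in RES (0.16, FDR = 0.00771) as compared with NC. In RES against NC 9 genes, or 20.9%, were called, 3 higher and 6 lower (median -0.01), beside 11.2% of all genes, among them BCL6 (-0.35, FDR = 7.54e-13), JUN (-0.23, FDR = 3.68e-08), ZFP36L1 (-0.21, FDR = 5.18e-07), ZFP36 (-0.26, FDR = 0.0023), MYC (-0.16, FDR = 0.014) and EBI3, a subunit of IL27 (0.30, FDR = 0.0451). The EBI3 call was lost in the quasi-likelihood test (FDR = 0.0706) and in DESeq2 (FDR = 0.1). JUN, ZC3H12A and ZFP36L1 were called lower with each compound. In PC, JUN was higher (0.31, FDR = 2.96e-14), ZC3H12A was lower (-0.21, FDR = 1.66e-05) and ZFP36L1 was not called. Their part in the IL6 level was not tested. The RES and POG counts against NC were lower with any library of the compared groups left out. The DEG count was lower without NC replicate 1. Fewer of all genes were called in these fits as well, and leaving out an NC replicate left 1 NC library.

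Between POG and RES 25 of 43 pathway genes were called (7 higher and 18 lower in POG), or 58.1% beside 27.9% of all genes. Between DEG and RES 19 of 43 were called (5 higher and 14 lower in DEG), or 44.2% beside 21.2% of all genes. IL31RA was lower in POG (-0.59, FDR = 4.35e-05) and in DEG (-0.53, FDR = 0.00284) than in RES, and FOS was higher in both (0.40, FDR = 6.15e-06 in POG and 0.40, FDR = 2.13e-04 in DEG). FOSL2 was lower in POG (-0.28, FDR = 3.51e-15), as were ZFP36L2 (-0.36, FDR = 7.34e-23) and SOCS2 (-0.38, FDR = 1.50e-06). EBI3 (-0.39, FDR = 0.00321) and SOCS1 (-0.37, FDR = 0.0167) were lower in DEG, and BCL6 was higher (0.28, FDR = 1.50e-08). The SOCS1 call was lost in DESeq2 (FDR = 0.0507). NFKB1 and RELA, subunits of NF-kB, went in opposite directions, with NFKB1 lower and RELA higher in both POG and DEG than in RES. Both counts of pathway genes were lower with any library of the compared groups left out, and fewer of all genes were called as well. Leaving out a DEG library left 1 in that group.

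The genes whose pattern over the 12 libraries was most like that of IL6, among 9902 genes at 10 CPM or more, were IFIT2 (Pearson r 0.98), ANGPTL2 (0.98), PLPP3 (0.98), ISG15 (0.98) and MRGPRF (0.97). IFIT2 and ISG15 are genes induced by interferon. IFIT2 averaged 124 CPM in NC, 152 in RES, 94.1 in PC, 68.9 in POG and 76.8 in DEG, and ISG15 averaged 369, 411, 329, 275 and 283 CPM in the same groups, the order seen for IL6. For LIF the nearest genes were PFKM, NPRL3, HMGA2, ATIC (each 0.98) and CD59 (0.97), all highest in PC. HMGA2, an architectural chromatin protein, averaged 369 CPM in PC and 250 to 274 in the other groups. Among pairs of members r was highest for LIF with SOCS3 (0.90) and IL6 with IL6ST (0.85), and lowest for LIF with STAT3 (-0.93) and SOCS3 with STAT3 (-0.82). The points share 5 groups and the same library scaling, so these values describe likeness of pattern only.

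**Figure D5:**
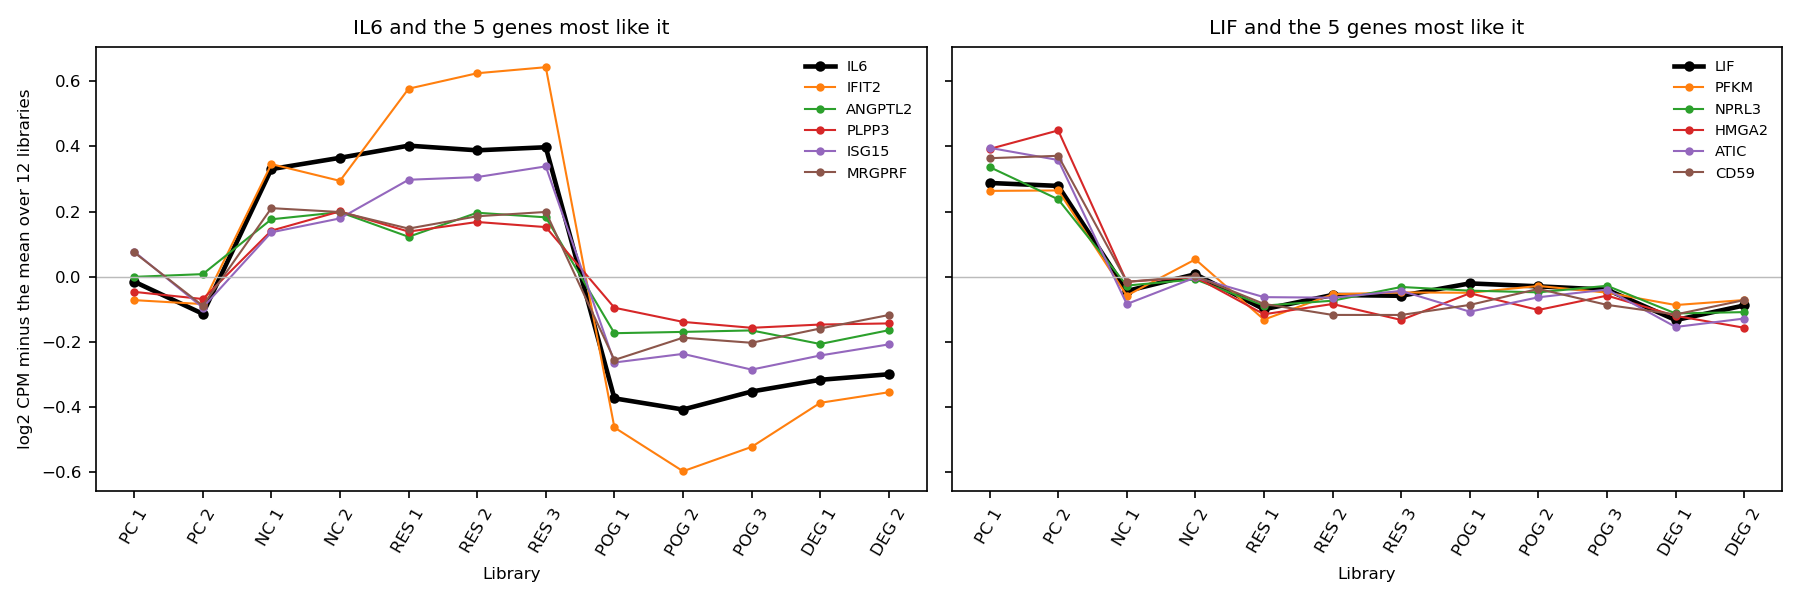
Level of IL6 (left) and LIF (right) and of the 5 genes most like each, as log2 CPM minus the gene's mean over the 12 libraries; points are libraries in group order, joined by a line for each gene. The IL6 set is lowest in POG and DEG and the LIF set is highest in PC.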

How the data were processed

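Polyadenylated RNA of hFOB cells was sequenced in 13 labelled samples, of which 12 had a column in the count table, and DEG replicate 3 was not analysed here. The authors deposited raw read counts per gene, not normalized. Per their methods, reads were aligned to hg38 with STAR and counted with featureCounts. The program versions, the strand used in counting and the handling of reads with several matches are not given in the sources used here, so counts of overlapping and antisense genes are uncertain. Nothing says that libraries came from separate cultures (the methods name triplicate wells for RES and POG), so p-values measure the spread between these libraries, which may be technical. Replicate numbers follow accession order.

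From the counts, edgeR 4.0.16 in R 4.3.3 gave TMM-scaled CPM, a filter by group (filterByExpr, 17092 genes with 99.967% of the reads), dispersions over all 12 libraries (common biological coefficient of variation 3.21%) and the exact test that the authors named, with Benjamini-Hochberg adjustment over all tested genes. Standard errors and 95% intervals came from the quasi-likelihood fit. Levels per kb used merged exons of GENCODE annotation, which covered 16961 tested genes. Library totals of 38464619 to 51416358 reads put at least 426 reads on each member in each library. Alternatives were the quasi-likelihood test, DESeq2 1.42.0, its size factors, library totals, no filter, a filter at a mean of 1 CPM, dispersions estimated in the compared groups alone and each library left out.

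The members and lists were chosen with earlier results of these data known. Named were all members, per comparison up to 6 called pathway genes with the largest change (mean level 1 CPM or more in a compared group, library ranges apart), and the 5 genes most like IL6 and LIF. ZC3H12A, ADAM10, ADAM17, NFKB1 and RELA, and genes listed to say what a list holds, were named after their values were seen. The same holds for the RES value of IL27RA and the PC values of JUN and ZFP36L1. Values of some pathway genes that the rule would name are not reported here.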

Additional observations from a re-analysis of the deposited data

How the results depend on the processing

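No paired analysis was possible because the labels give no replicate numbers that tie libraries of different groups together. Of 830 recomputed member values, 784 kept their side of the threshold (19 of them, uncalled, changed sign), 28 lost the call and 18 gained it. Called values reversed in 0 cases. Of 25 called member values, 17 kept the call in every alternative, among them all 5 called values of IL6, all 4 of IL11 and the POG values of IL6ST and OSMR against NC. Members called in RES against NC numbered 1 with library totals and 1 without the filter, as compared with 2, and 0 to 2 with a library left out. Leaving out a library gave 4 to 8 called members in PC against NC (lowest without PC replicate 1). Pathway genes called ranged from 4 to 8 in RES against NC, 5 to 9 in DEG against NC, 11 to 16 in DEG against RES and 0 to 1 in DEG against POG. With dispersions from the groups compared, 14 pathway genes were called in RES against NC (9 before), and DEG against POG gave 5 members (0 before) and 6 pathway genes (1 before). Calls over all 17092 genes rose as well, from 1906 to 2712 in RES against NC and from 179 to 829 in DEG against POG. Leaving out a library also changed the number of all genes called, so the counts above do not describe these genes alone. Other causes of these changes were not tested. Scaling by library totals moved the median of all genes by at most 0.043 on the log2 scale. Where a group was left with 1 library, that library was assumed to vary like the other groups. CLCF1 and IL6R, with the fewest reads, had the widest 95% intervals among the members.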
